A study of Mus musculus with 8 samples.

Results

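The genes described here encode the eukaryotic translation initiation factors, the proteins that bring a ribosome and the initiator tRNA to the start codon of an mRNA. They were chosen by name: every gene symbol of the authors' deposited table that starts with Eif and a digit, without the Eif4ebp repressors and the Eif2ak kinases. This gave 46 genes of the 15853 listed, and all 46 had an adjusted p-value. The rule also takes in Eif4a3, Eif4enif1, Eif5a, Eif5a2, Eif6 and Eif1ad, whose main known roles lie partly or wholly outside initiation. Eif2s3y, the Y-linked copy of an eIF2 subunit gene, was not among the genes listed and so could not be included.

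Mouse bone marrow was grown into macrophages over 7 days in medium conditioned by L929 fibroblasts, a source of macrophage growth factor. The cells then received insulin (10 nM), glucose (25 mM) and the saturated fatty acid palmitate (C16:0, 250 uM) for 24 h. Poly(A)-selected RNA was sequenced from 4 control libraries (Mirc11fl/fl Mirc22fl/fl Lyz2+/+) and 4 knockout libraries (Mirc11fl/fl Mirc22fl/fl Lyz2Cre/Cre). Both groups thus carried the loxP-flanked Mirc11 and Mirc22 clusters, the source of miR-23 and miR-27 and of miR-24, and only the knockout carried Cre. Cre sits in Lyz2, a myeloid gene, so it acts in myeloid cells and the groups also differ in Lyz2 itself. The age of the mice is not stated in the labels, and deletion of the clusters was not measured here. The series design calls the libraries biological replicates, and whether each came from its own animal is not stated, so each p-value reflects only how far these libraries vary, which may be technical.

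Values of single libraries could not be tied to a label and were not used. Each gene is therefore described by its mean normalized count across the 8 libraries, by its log2 fold change and that value's standard error (SE), all as the authors deposited them, and by a 95% interval computed from the last pair. A level quoted for one group was derived from that mean and fold change, taking the groups as equal in size, and is called implied. The direction was read from Lyz2, at -9.10 (SE 0.42) per the authors' deposited table, which was taken as lower in the knockout. A gene was called when the authors' adjusted p (DESeq2) was under 0.05.

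Initiation proceeds in an ordered series of steps. eIF2 carries the initiator tRNA to the small ribosomal subunit, where eIF1, eIF1A, eIF3 and eIF5 help it scan for a start codon. eIF4F, made of the cap-binding eIF4E, the scaffold eIF4G and the helicase eIF4A, recruits the mRNA. eIF5B then helps the large subunit join, and eIF2B recharges eIF2 with GTP, the step that stress kinases block.

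The floxed clusters could bear on these genes through seed matches, short 3' UTR sites that pair with the seed of a miRNA (bases 2 to 8, or bases 2 to 7 where an A follows the match). The mature sequences below are from RefSeq (GRCm38.p6), with the seed in capitals, and are shown because each site printed with the results matches one of these seeds.
miR-23a-3p: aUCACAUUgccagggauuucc
miR-27a-3p: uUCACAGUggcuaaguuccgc
miR-27b-3p: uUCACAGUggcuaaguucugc
miR-24-3p: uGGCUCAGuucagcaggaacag
The miR-27 copies share a seed, and the miR-23 seed differs from it. Mir23a, Mir27a and Mir24-2 lie in Mirc11 on chromosome 8, while Mir23b, Mir27b and Mir24-1 lie in Mirc22 on chromosome 13. The mature sequence of miR-23b-3p was missing from the reference used, so miR-23 sites were sought with the seed of miR-23a-3p.

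Knockout macrophages had higher Eif4g1, Eif4a1 and Eif5 mRNA and lower Eif5a2, Eif2b4, Eif1b, Eif4e3, Eif2b5, Eif1, Eif3j1 and Eif4e2 mRNA than control macrophages. Of the 46 genes, 3 were called higher and 8 lower. That is 23.9% of them, against 23.0% of the 14619 genes tested in this comparison (11.3% called higher and 11.7% lower). The share of initiation factor genes called was thus near the background. The median log2 fold change was -0.07, against -0.0040 over all genes tested, with 31 of the 46 (67.4%) below 0. Over the 8631 tested genes within the same range of mean counts, the median was -0.05, 61.0% were below 0, and 8.26% were called higher and 17.1% lower, close to the 6.52% and 17.4% of the initiation factors. Of the initiation factor genes called, 27.3% were higher. With fold changes centred on the summed levels of the groups without Lyz2, a shift of -0.05, 5 were called higher and 6 lower (45.5% higher). With Lyz2 in the sums, 6 were higher and 3 lower (66.7% higher). Eif1 and Eif3j1 lost their calls under both scalings, and Eif1b, Eif2b5 and Eif4e2 under the latter.

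The changes were small in size. The log2 fold changes ran from -0.49 for Eif5a2 to 0.22 for Eif2s3x, and 42 genes differed by less than 1.2-fold. None of the 11 called genes reached 1.5-fold, and 66.8% of all genes called in the series did not either. SEs ran from 0.04 to 0.16 (median 0.07), so that 33 of the 35 genes not called had a 95% interval wholly within 1.3-fold in either direction. The intervals of Eif2s3x and Eif5b reached beyond it. Summed over the 46 genes, the implied level was 525986 normalized counts in the control and 531269 in the knockout, a difference of 1.00%. The same sum differed by -4.27% over all genes listed, Lyz2 among them. Over the genes within the same range of mean counts it differed by -3.48%.

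**Figure D1:**
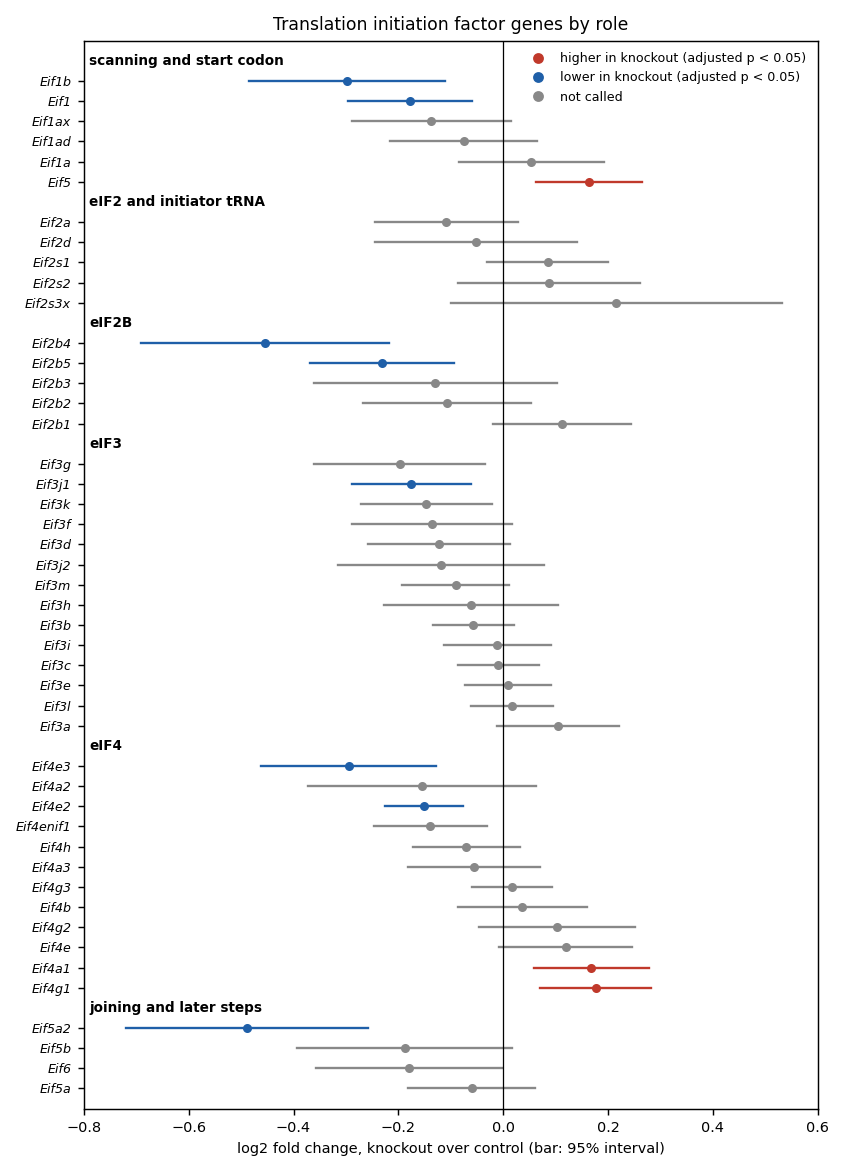
Log2 fold change of each gene in knockout over control (horizontal axis), grouped by role, with points for the authors' estimates and bars for 95% intervals. The 3 genes called higher (red) lie between 0.16 and 0.18, the 8 called lower (blue) between -0.49 and -0.15, and the remaining 35 (grey) were not called.

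The libraries carried the listed macrophage markers at means from 157.6 (Cd163) to 296284 (Ctss) normalized counts, with a median of 36840. The M-CSF receptor gene Csf1r had a mean of 163291 and Cd68 one of 104490, and both were called lower in the knockout. Markers of stromal cells and fibroblasts moved with genotype in the same libraries. Of 20 listed, 19 were in the table, 18 were called higher and 0 lower (median 1.91), and their summed implied level was 3733 normalized counts in the control and 14523 in the knockout. Lum, which encodes the matrix proteoglycan lumican, was not listed in the table. Of 18 macrophage markers, 1 was called higher (Adgre1, at 0.25 and a mean of 144462) and 7 lower (median -0.26). Their summed level differed by -42.4%, or by -18.1% without Lyz2. For both lists, the shares over all genes tested were 11.3% called higher and 11.7% lower. Of 5 T and B cell markers only Ms4a1 was listed, and of 7 neutrophil markers S100a8, Elane and Ltf were, at means of 76.8 or less. In bulk RNA, fewer cells of a type and less RNA per cell cannot be told apart. The part of stromal RNA in the results below was not tested.

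Of the genes that act in scanning and start codon choice, Eif5 rose while Eif1 and Eif1b fell. Eif5 encodes the factor that makes eIF2 hydrolyse its GTP once a start codon is found. Its implied level was 16028 normalized counts in the control and 17954 in the knockout, and the log2 fold change was 0.16 (SE 0.05, adjusted p = 0.0108) per the authors' deposited table. Eif1 encodes the factor that opposes eIF5 by rejecting poor start codons. It had 19982.5 normalized counts in the control and 17669.7 in the knockout, with -0.18 (SE 0.06, adjusted p = 0.0195) per the authors' deposited table. It lost its call under both summed scalings (adjusted p = 0.125 and 0.163). Its close copy Eif1b had 2555 normalized counts in the control and 2078 in the knockout, and changed by -0.30 (SE 0.10, adjusted p = 0.0120) per the authors' deposited table, a call lost with Lyz2 in the scaling (adjusted p = 0.0576). Eif5 and the Eif1 pair therefore had intervals on opposite sides of 0, at 0.06 to 0.27 for Eif5, -0.30 to -0.06 for Eif1 and -0.49 to -0.11 for Eif1b.

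Of the 31-base words of the longest coding transcript of Eif1, 37.2% also occur in annotated transcripts of other genes, against 0.199% for Eif1b. By this measure the counts of Eif1 are the less certain. The exons of Eif1b overlap those of D830035M03Rik on the opposite strand by 143 bases.

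The eIF1A genes, whose product works beside eIF1 on the small subunit, were not called. Eif1a was at 0.05 (SE 0.07) and its X-linked copy Eif1ax at -0.14 (SE 0.08) per the authors' deposited table. Eif1ad, which encodes a protein with an eIF1A-like domain, was at -0.08 (SE 0.07) per the authors' deposited table. Eif5 lies at chr12:111538016-111546752 on the plus strand, Eif1 at chr11:100319885-100322096 on the plus strand and Eif1b at chr9:120492232-120495330 on the plus strand (GRCm38).

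None of the 3 measured subunit genes of eIF2 was called. Eif2s1, whose product is the subunit that stress kinases phosphorylate, was at 0.08 (SE 0.06), and Eif2s2, the beta subunit gene, at 0.09 (SE 0.09) per the authors' deposited table. The X-linked Eif2s3x, which encodes the GTP-binding gamma subunit, had the most positive value of all 46 genes, 0.22, but also the widest error (SE 0.16, adjusted p = 0.348) per the authors' deposited table. Its interval ran from -0.10 to 0.53. Eif2a and Eif2d, whose products can deliver initiator tRNA without eIF2, were at -0.11 (SE 0.07) and -0.05 (SE 0.10) per the authors' deposited table.

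Subunit genes of eIF2B, the exchange factor that reactivates eIF2, showed 2 of 5 lower and none higher, where 11.7% of all genes were lower, a group too small to set against that share. Eif2b4, the delta subunit gene of its regulatory core, had an implied level of 1682 normalized counts in the control and 1228 in the knockout, a change of -27.0%. Its value on the log2 scale was -0.45 (SE 0.12, adjusted p = 0.00183) per the authors' deposited table. Eif2b5, which encodes the catalytic epsilon subunit, had 2886 and 2459.7 normalized counts, with -0.23 (SE 0.07, adjusted p = 0.00765) per the authors' deposited table. It lost its call with Lyz2 in the scaling (adjusted p = 0.0672). The other subunit genes were not called: Eif2b1 was at 0.11 (SE 0.07), Eif2b2 at -0.11 (SE 0.08) and Eif2b3 at -0.13 (SE 0.12) per the authors' deposited table. With Lyz2 in the scaling, Eif2b1 passed as higher (adjusted p = 0.0445). Summed over the 5 genes, the implied level was 9283 normalized counts in the control and 8318 in the knockout, a difference of -10.4%.

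Eif2b4 lies at chr5:31187558-31193430 on the minus strand (GRCm38), and its exons overlap those of Snx17 on the opposite strand by 204 bases. No label says whether counting used strand, so reads from the overlap may belong to either gene. Eif2b5 lies at chr16:20498817-20509323 on the plus strand (GRCm38), and no exon of another gene overlapped it.

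Genes that respond to ATF4, the transcription factor made when eIF2 is phosphorylated or eIF2B is limiting, were called about as often as all genes. Of 23 genes, 3 were called higher and 2 lower, or 21.7% against 23.0%, with a median of -0.15. The 3 higher were Sesn2 (0.90, SE 0.07), Ddit4 (0.64, SE 0.12) and Psat1 (0.53, SE 0.17) per the authors' deposited table. Sesn2 and Ddit4 encode inhibitors of mTORC1, and Psat1 a serine synthesis enzyme. Cebpg, a partner of ATF4 (-0.38, SE 0.09), and Slc7a11, a cystine transporter gene (-0.68, SE 0.23), were lower per the authors' deposited table. Atf4 mRNA itself was at -0.24 (SE 0.12, adjusted p = 0.122) and Ddit3, which encodes CHOP, at -0.39 (SE 0.20, adjusted p = 0.150) per the authors' deposited table.

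eIF3, the largest initiation factor, scaffolds the scanning complex. Of its 14 genes, 1 was called lower and none higher. That is 7.14% against 23.0% of all genes, in a group too small to set against that share. Eif3j1, which encodes a loosely bound subunit, had 3208 normalized counts in the control and 2840.4 in the knockout. It changed by -0.18 (SE 0.06, adjusted p = 0.0155) per the authors' deposited table, a call lost under both summed scalings (adjusted p = 0.113 and 0.152). The near-identical copy Eif3j2 was at -0.12 (SE 0.10) per the authors' deposited table, and 94.0% of the 31-base words of its longest coding transcript also occur in Eif3j1. The division of reads between these copies is thus uncertain. Eif3j1, at chr2:122028546-122056598 on the plus strand (GRCm38), also overlaps exons of Spg11 on the opposite strand by 1107 bases.

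Eif3a, which encodes the scaffold subunit and had a mean of 38468 normalized counts, was at 0.10 (SE 0.06, adjusted p = 0.195) per the authors' deposited table. Eif3b and Eif3c, the other large core subunit genes, were at -0.06 (SE 0.04) and -0.01 (SE 0.04) per the authors' deposited table. Eif3e and Eif3l were at 0.01 (SE 0.04) and 0.02 (SE 0.04) per the authors' deposited table. Each of these 4 intervals lay within 1.2-fold of no change. Eif3d, which encodes a subunit that can itself bind caps, Eif3f, Eif3g, Eif3h, Eif3i, Eif3k and Eif3m ran from -0.20 (Eif3g, SE 0.08, adjusted p = 0.0682) to -0.01 (Eif3i, SE 0.05) per the authors' deposited table. The summed implied level of the 14 genes was 152123 normalized counts in the control and 149881 in the knockout.

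Of the 12 eIF4 genes, 2 were called higher and 2 lower. That is 33.3% against 23.0% of all genes, in a group too small to set against that share. Eif4g1 and Eif4a1, which encode the main scaffold and helicase of eIF4F, were higher in the knockout, and Eif4e2 and Eif4e3, which encode alternative cap-binding proteins, were lower. Eif4g1 had an implied level of 27782 normalized counts in the control and 31400.2 in the knockout. On the log2 scale the difference was 0.18 (SE 0.05, adjusted p = 0.00797) per the authors' deposited table. Eif4a1 had 43754 and 49141 normalized counts, and 0.17 (SE 0.06, adjusted p = 0.0170) per the authors' deposited table. Eif4e, the cap-binding subunit gene itself, was at 0.12 (SE 0.06, adjusted p = 0.173) per the authors' deposited table, with an interval from -0.01 to 0.24. It passed as higher under both summed scalings (adjusted p = 0.0384 and 0.0263), as did Eif3a (adjusted p = 0.039 and 0.0259). Summed over Eif4e, Eif4g1 and Eif4a1, the implied level was 12.2% higher in the knockout, a sum that holds the 2 genes called higher. It leaves out the related genes Eif4a2 (-0.16, SE 0.11), Eif4g2 (0.10, SE 0.08) and Eif4g3 (0.02, SE 0.04), none of them called. A sum over genes that include those called higher is no separate evidence of a rise. The sum over all 12 eIF4 genes was 4.86% higher.

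The Eif4a1 value is uncertain because much of its transcript sequence also occurs elsewhere. Of the 31-base words of its longest coding transcript, 67.5% also occur in annotated transcripts of other genes, most of them in the pseudogene Eif4a-ps4. By contrast, 0.945% of those of Eif4g1 do. Large shares were also found for Eif3m (53.7%), Eif4a3 (44.8%), Eif3e (42.0%), Eif3h (37.4%), Eif2s3x (36.9%) and Eif2s2 (32.1%). The values given for those genes are uncertain in the same way. Eif4g1 lies at chr16:20668313-20692884 on the plus strand and Eif4a1 at chr11:69666936-69672423 on the minus strand (GRCm38).

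Eif4e2 encodes 4EHP, a cap-binding protein that does not bind eIF4G and represses the mRNAs it holds. Its levels were 6915 normalized counts in the control and 6225 in the knockout. At -0.15 (SE 0.04, adjusted p = 0.000901) per the authors' deposited table, it had the smallest SE of the 46 genes, and its call was lost with Lyz2 in the scaling (adjusted p = 0.0773). Eif4e3, which encodes a further member of the cap-binding family, had 2137 and 1742 normalized counts, with -0.29 (SE 0.09, adjusted p = 0.00469) per the authors' deposited table. Its exons overlap those of Gm20696 on the same strand by 373 bases, so some of its reads could be counted for either. The intervals of Eif4e2 (-0.23 to -0.08) and Eif4e3 (-0.46 to -0.13) did not overlap that of Eif4e, a difference between genes that was not tested. Eif4e2 lies at chr1:87213914-87240488 on the plus strand and Eif4e3 at chr6:99625135-99666771 on the minus strand (GRCm38).

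Other scaffolds and helicases of the eIF4 family were not called. Eif4g2, which encodes the eIF4G-like protein DAP5 and had a mean of 64823 normalized counts, was at 0.10 (SE 0.08) per the authors' deposited table. Eif4g3 was at 0.02 (SE 0.04) and Eif4a2, whose product is a close relative of eIF4A1, at -0.16 (SE 0.11) per the authors' deposited table. The helicase cofactor genes Eif4b and Eif4h were at 0.04 (SE 0.06) and -0.07 (SE 0.05) per the authors' deposited table. Eif4a3, a helicase of the exon junction complex, was at -0.06 (SE 0.06) per the authors' deposited table. Eif4enif1, which encodes the eIF4E transporter of processing bodies, lay just outside the threshold at -0.14 (SE 0.06, adjusted p = 0.0501) per the authors' deposited table. It passed when only genes with a mean of at least 50 were tested (adjusted p = 0.0451).

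Among the factors of subunit joining and later steps, Eif5a2 fell and no gene rose. Eif5a and Eif5a2 encode eIF5A, which carries the modified lysine hypusine and helps ribosomes past difficult peptide bonds. Eif5a2 had 869 normalized counts in the control and 619.5 in the knockout, the largest relative change of the 46 genes. On the log2 scale it was at -0.49 (SE 0.12, adjusted p = 0.000468) per the authors' deposited table. The main gene Eif5a, at a mean of 22201 normalized counts, was at -0.06 (SE 0.06, interval -0.18 to 0.06) per the authors' deposited table. Eif5b, the subunit joining GTPase gene, was at -0.19 (SE 0.10) and Eif6, which encodes a factor that keeps ribosomal subunits apart, at -0.18 (SE 0.09, adjusted p = 0.136) per the authors' deposited table. Eif5a2 lies at chr3:28781276-28798846 on the plus strand (GRCm38).

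The genes called higher had high mean counts and most of those called lower did not, on a scale not divided by length. Of the 18 genes with a mean of at least 10000 normalized counts, 3 were called higher and 1 (Eif1) lower. Of the 28 below it, none was called higher and 7 lower. Over all genes tested, those at or above 10000 were called higher in 8.49% and lower in 20.0% of cases, and those below it in 11.6% and 10.8%. The bound of 10000 was chosen after the values were seen.

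**Figure D2:**
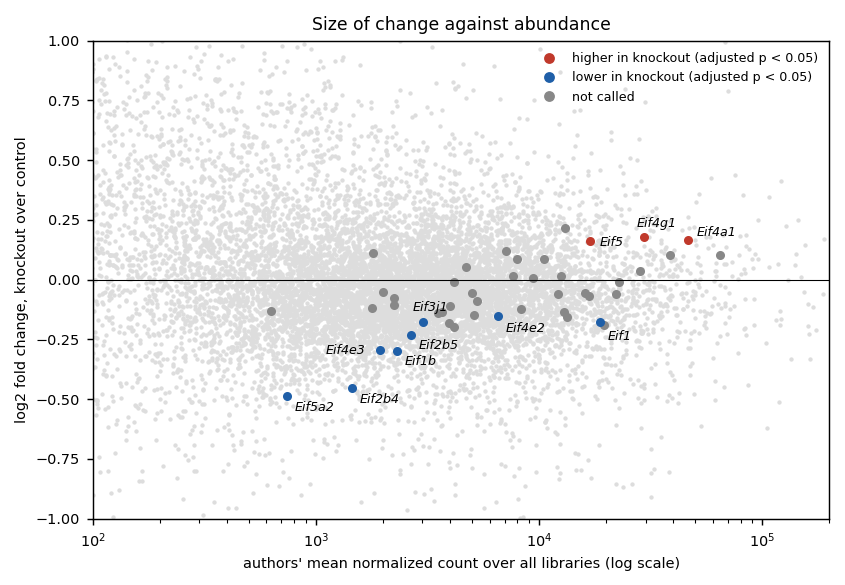
Log2 fold change in knockout over control (vertical axis) against the authors' mean normalized count (horizontal axis, log scale), with the initiation factor genes coloured by call and all other tested genes in pale grey. Eif5, Eif4g1 and Eif4a1 lie at means from 16991 to 46448, and of the 8 genes called lower only Eif1 exceeds 10000. Values of other genes beyond the axis limits are not drawn.

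To compare levels between genes, the mean counts were divided by the merged exon length of GENCODE M21. On that scale Eif4a1 was highest at 10717 normalized counts per kb, followed by Eif5a (9340.1) and Eif1 (8973). Eif2b3 (96.1), Eif5a2 (148) and Eif2d (269) were lowest. Eif1b had 2059 per kb beside the 8973 of Eif1, and Eif5a2 had 148 beside the 9340.1 of Eif5a. Eif3j2, at 750 per kb, was above its copy Eif3j1 at 519, although the reads of that pair are not cleanly divided. Eif4e, at 1187 per kb, was above Eif4e2 (876) and Eif4e3 (771). Merged exons include retained introns and long untranslated ends, so these values serve for a coarse order only.

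**Figure D3:**
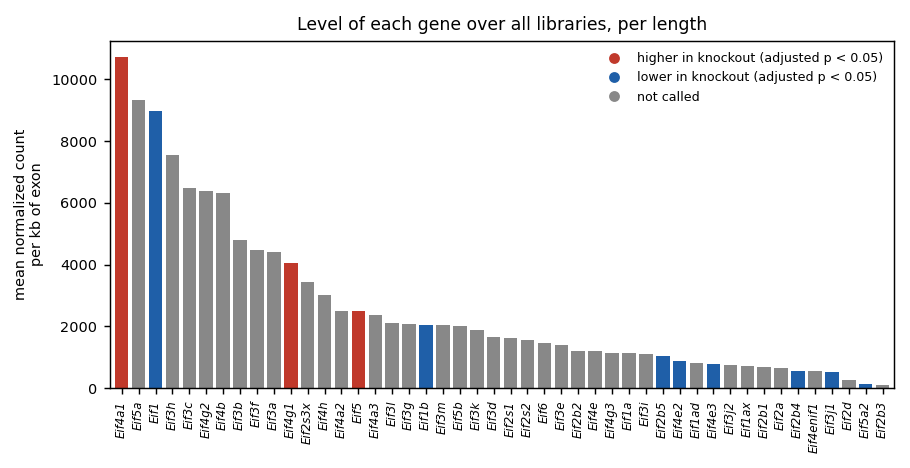
Mean normalized count over all 8 libraries per kb of merged exon (vertical axis) for each of the 46 genes in falling order, coloured by call in the comparison of genotypes. Eif4a1 stands first at 10717 per kb and Eif2b3 last at 96.1 per kb. No error is drawn, since values of single libraries were not used.

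Regulators and direct partners of the initiation factors were compared as a list of 38 genes. Of these, 2 were called higher and 3 lower, or 13.2% against 23.0% of all genes, with a median of -0.03. Eif4ebp2 and Eif4ebp3, which encode repressors that keep eIF4E from eIF4G, were the 2 higher, at 0.52 (SE 0.09) and 1.87 (SE 0.49) per the authors' deposited table, the latter at a mean of only 30.9 normalized counts. Eif4ebp1, of the same family, was not called, at -0.15 (SE 0.09, adjusted p = 0.268 by the authors' Wald test). Mknk1, a kinase gene for eIF4E (-0.23, SE 0.06), and Paip2, which encodes an inhibitor of poly(A)-binding protein (-0.26, SE 0.07), were lower per the authors' deposited table. Rps6kb2, an S6 kinase gene, was also lower, at -0.32 (SE 0.12, adjusted p = 0.0350) per the authors' deposited table. The 4 eIF2 kinase genes Eif2ak1 (-0.11, SE 0.05), Eif2ak2 (-0.14, SE 0.17), Eif2ak3 (0.0014, SE 0.08) and Eif2ak4 (0.06, SE 0.05) were not called per the authors' deposited table. Dhps and Dohh, which encode the enzymes that put hypusine on eIF5A, were at -0.02 (SE 0.07) and -0.17 (SE 0.08), also not called, per the authors' deposited table.

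The list of elongation and termination factors, which act after initiation, had 3 of 16 called higher and 2 lower (31.2%, against 23.0% of all genes), with a median of -0.01. That list also holds related genes, Eef1e1 among them, that are not such factors themselves. Gspt1 (0.18, SE 0.07, adjusted p = 0.0496) and its copy Gspt2 (0.81, SE 0.16), which encode the release factor eRF3, and Eef1e1 (0.18, SE 0.07) were higher per the authors' deposited table. Gtpbp2, a ribosome rescue gene, was lower at -0.46 (SE 0.07), as was Gtpbp1 at -0.28 (SE 0.09), per the authors' deposited table. Eef1a1 and Eef2, which encode the main elongation factors, were at 0.02 (SE 0.04) and -0.05 (SE 0.03) and were not called per the authors' deposited table.

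**Figure D4:**
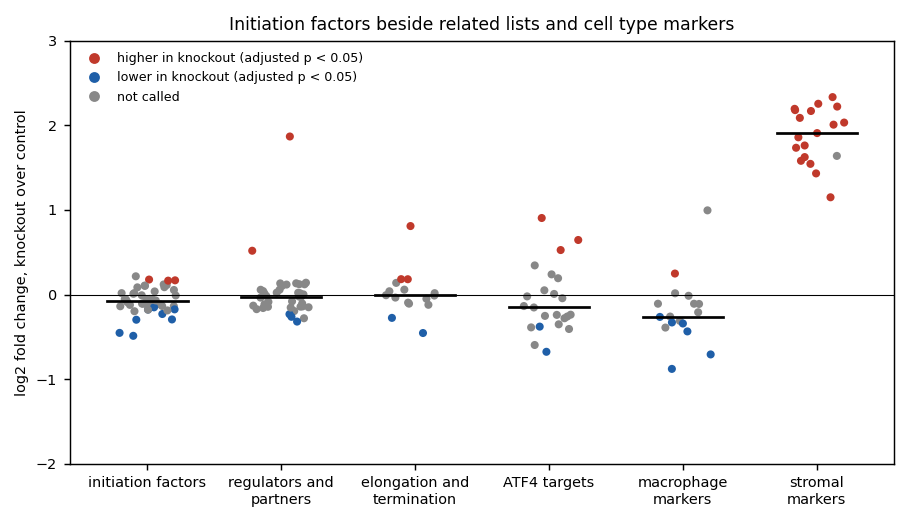
Log2 fold change in knockout over control (vertical axis) of the 46 initiation factors, 38 regulators and partners, 16 elongation and termination factors, 23 ATF4-responsive genes, 18 macrophage markers and 19 stromal markers, one point per gene and a bar at each median. The medians of the first 3 lists lie between -0.07 and -0.01, and that of the stromal markers at 1.91. Lyz2, at -9.10, lies below the axis.

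Seed matches were sought in each gene's longest annotated 3' UTR, on the transcript strand. A match was AATGTGA or ATGTGAA for miR-23, ACTGTGA or CTGTGAA for miR-27, and CTGAGCC or TGAGCCA for miR-24, and sites holding both forms are the 8-base matches. The second form of each pairs with bases 2 to 7 and ends in an A. Of the 46 genes, 11 (23.9%) had a miR-23 site, 11 (23.9%) a miR-27 site and 8 (17.4%) a miR-24 site. The shares over 13150 tested genes with an annotated 3' UTR were 26.0%, 31.2% and 28.8%. A match is a description of the sequence, and binding was not measured.

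Among the 11 genes with a miR-23 site, none was called higher and 4 were called lower (Eif1, Eif3j1, Eif4e2 and Eif5a2). Over all genes with a miR-23 site, 16.0% were called higher and 8.62% lower. Of the 11 with a miR-27 site, 1 (Eif5) was called higher and 3 (Eif3j1, Eif4e3 and Eif5a2) lower, against 16.1% and 9.66% over all genes. Of the 8 with a miR-24 site, none was called higher and 1 (Eif4e2) lower, against 14.1% and 11.9%. The 24 genes with none of these sites had 2 called higher (8.33%) and 3 lower (12.5%) and a median of -0.10, against 9.07%, 14.8% and -0.04 over all genes without a site. The 22 genes with any site had a median of -0.06, against 0.02 over all genes with a site, and longer 3' UTRs, at a median of 1983 bases against 436.5. With counts this small, no test of the difference was made.

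The miR-27 site of Eif5 and the miR-23 sites of Eif4e2 and Eif5a2 are shown as examples from called genes. The 8-base sites of 4 genes not called are shown as the longest matches. Other sites of called genes, in Eif1, Eif3j1, Eif4e2, Eif4e3 and Eif5a2, are not printed. Capitals mark the match, and 8 flanking bases stand on each side (GRCm38, GENCODE M21 transcripts).
Eif5 miR-27, chr12:111544751-111544757, plus strand, exon 12: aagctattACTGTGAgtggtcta
Eif4e2 miR-23, chr1:87238085-87238091, plus strand, exon 8: atggggaaAATGTGActgtaaca
Eif4e2 miR-23, chr1:87239984-87239990, plus strand, exon 8: ccggagccAATGTGAccagcacg
Eif5a2 miR-23, chr3:28798120-28798126, plus strand, exon 5: ttttcttcATGTGAAggacatat
Eif3a miR-23, chr19:60761806-60761813, minus strand, exon 22: aaaataaaAATGTGAAcccttcag
Eif2s3x miR-23, chrX:94189721-94189728, minus strand, exon 12: taaaattaAATGTGAAaagtggta
Eif5b miR-23, chr1:38055538-38055545, plus strand, exon 24: aaataccaAATGTGAActtgatgc
Eif4g2 miR-24, chr7:111069160-111069167, minus strand, exon 22: ttaaaccaCTGAGCCAtcctccag
Eif4g2 miR-24, chr7:111068519-111068526, minus strand, exon 22: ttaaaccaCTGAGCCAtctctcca
All of these lie in the 3' UTR. Of the 4 genes with an 8-base match, Eif2s3x (0.22), Eif3a (0.10) and Eif4g2 (0.10) had values above 0 and Eif5b (-0.19) a value below it per the authors' deposited table, and none was called. Eif4e2, with a pair of miR-23 sites and a miR-24 site, was lower in the knockout, and Eif5, with a single miR-27 site, was higher.

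None of the 46 genes lies on chromosome 8, 10 or 13, where Mirc11, Lyz2 and Mirc22 are. No result here concerns a neighbour of an altered locus.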

How the data were processed

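RNA-seq of 4 control and 4 knockout macrophage libraries was analysed from the authors' deposited comparison. FastQC, cutadapt, Salmon, DESeq2 and the mm10 build are named in the submitters' processing notes, with no version, role or setting. Per the file headers, the authors deposited a mean signal (mean normalized count), a log2 fold change with its standard error, a Wald score, and raw and adjusted p-value columns per gene. The header names no numerator, so the sign was read from Lyz2. A further 8 columns of values per library match no sample label and were not used, so depth per library is unknown here.

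Calls are the authors' adjusted p under 0.05 over 14619 genes. Intervals are the log2 fold change with normal 95% limits, and group levels were derived from the mean and fold change. All members past the threshold, that of the highest mean count in each role group and the near-copy sets were named, with the others given beside their role group; from other lists, called genes were named by the smallest adjusted p, up to 4, and further genes were chosen after their values were seen. Members and lists were chosen with earlier results of these data known. Positions, exon lengths and 3' UTRs are those of GENCODE M21 on GRCm38 (mm10), where 46 of 46 symbols matched. Alternatives were other filters, a threshold of 0.01 and centred fold changes. Python 3.11.15, scipy 1.17.1 and pandas 2.3.3 were used, and the centring step was tested on simulated data.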

Additional observations from a re-analysis of the deposited data

How the results depend on the processing

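The 3 genes called higher and 8 called lower kept those counts with no filter on the mean and with fold changes centred on the median of all genes. With only genes of a mean of at least 50 tested, 9 were called lower, as Eif4enif1 passed (adjusted p = 0.0451). At an adjusted p under 0.01, 1 was called higher (Eif4g1) and 5 lower.

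Centring on the summed group means without Lyz2, a shift of -0.05, gave 5 higher and 6 lower, with a median of -0.02. Eif3a (adjusted p = 0.039) and Eif4e (adjusted p = 0.0384) passed as higher, Eif1 and Eif3j1 lost their calls, and values of genes that were not called turned sign: Eif2d (0.00038), Eif3c (0.043) and Eif3i (0.041). Over all genes the share of calls that were higher rose from 49.1% to 67.7%. With Lyz2 included, an alternative chosen after seeing the data (shift -0.06), 6 were higher and 3 lower (Eif2b4, Eif4e3 and Eif5a2), with a median of -0.0099. Eif1, Eif1b, Eif2b5, Eif3j1 and Eif4e2 then lost their calls, Eif2b1, Eif3a and Eif4e passed as higher, and sign turned for Eif2d (0.011), Eif3b (0.0060), Eif3c (0.054), Eif3h (0.0012), Eif3i (0.051), Eif4a3 (0.0074) and Eif5a (0.0026), none of them called. Eif4g1, Eif4a1, Eif5, Eif2b4, Eif4e3 and Eif5a2 kept their calls under both summed scalings.

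No paired analysis was possible because no column of single-library values names its sample, genotype or replicate. For the same reason limma, edgeR and DESeq2 refits, other pseudocounts and refits without single libraries were not run.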
